A study of Mus musculus with 7 samples.

Results

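The accessible regions of pancreatic epithelium 28 days after caerulein were compared with those of untreated epithelium, to ask which regions and genes still differed after the inflammation had resolved. Each group was 1 ATAC-seq library, made from purified pancreatic epithelial cells of wild-type C57BL/6J mice. ATAC-seq uses the Tn5 transposase to tag open DNA, and caerulein is a cholecystokinin analogue whose overdose causes a transient acute pancreatitis. The mice were either untreated or harvested at day 28 after the treatment. The sources used here give no sex, age, number of pooled mice or surface marker for the purification. Lists from days 1 and 7 of the same series serve as context. A day 28 region was called gained when no untreated region overlapped it by 1 bp. An untreated region was called lost when no day 28 region overlapped it. On chromosomes 1 to 19 and X, 30910 of the 130149 day 28 regions were gained, which is 23.7%, and 37988 of the 140286 untreated regions were lost, which is 27.1%. The gained and lost regions were thus 68898 of the 270435 regions in both lists. Each summit was assigned to the protein-coding gene whose span was nearest, up to a distance of 50 kb, and the stretch nearest to a gene forms its territory. This linked 26784 gained and 33606 lost regions to 21627 annotated genes.

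At day 28 the regions at digestive enzyme genes were mostly in place, and the genes with the most new regions included Snd1, Fndc3b, Chka and Rora. Genes of the endoplasmic reticulum had gained 31.9% of their day 28 regions. The largest losses lay at Gse1, Agap1 and Arhgap26. Genes of endothelial cells and of intestinal epithelium had lost 49.2% and 48.2% of their untreated regions. The intestinal list was added after 3 members had been seen among the strongest lost regions at starts. The highest share lost, 57.1%, was that of the small skeletal muscle list, with 28 of 49 regions. With 1 library in each group no difference has a replicate check, no p-value can be given, and every value compares these libraries rather than the conditions.

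Acinar cells fill most of the pancreas and make the digestive enzymes, which pass through an extensive endoplasmic reticulum into zymogen granules and are released when cholecystokinin or acetylcholine raises cytosolic calcium. During acute pancreatitis they lose enzyme expression and take on ductal features, a change called acinar-to-ductal metaplasia, and they regain their identity as the tissue heals. Open regions mark promoters and enhancers, where transcription factors such as PTF1A and NR5A2 in acinar cells, or AP-1 and RUNX factors after injury, bind DNA.

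Some promoters held a region in 1 list only, and 7 of them are shown. Runx2, Batf and Spp1 had the highest folds among gene list members with a day 28 region only, and the other 4 belong to the intestinal and endothelial lists and were chosen after their values were seen. Each line gives the 250 bases before the annotated transcription start, written along the coding strand from the RefSeq promoter table of GRCm38.p6. The region at Runx2, Batf and Spp1 was in the day 28 list only, and the region at Gpa33, Lgals4, Egfl7 and Vil1 in the untreated list only. Capitals mark exact matches to 7 motifs, each searched on both strands: TGANTCA for AP-1, TGACGTCA for CRE, AAGGTCA for NR5A2, AGATAA for the GATA family, TGTGGTT for RUNX, GGGCGG for SP/KLF and CCGGAAGT for ETS.
Runx2: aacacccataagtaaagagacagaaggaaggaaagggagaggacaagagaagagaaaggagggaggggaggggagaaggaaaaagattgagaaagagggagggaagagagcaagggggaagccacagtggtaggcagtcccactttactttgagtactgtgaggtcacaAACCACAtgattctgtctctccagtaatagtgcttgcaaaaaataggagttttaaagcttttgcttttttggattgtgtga
Batf: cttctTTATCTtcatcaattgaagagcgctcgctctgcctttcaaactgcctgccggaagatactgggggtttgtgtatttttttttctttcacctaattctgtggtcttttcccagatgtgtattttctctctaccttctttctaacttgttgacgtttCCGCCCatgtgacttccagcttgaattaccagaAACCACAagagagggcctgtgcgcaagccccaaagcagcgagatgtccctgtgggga
Spp1: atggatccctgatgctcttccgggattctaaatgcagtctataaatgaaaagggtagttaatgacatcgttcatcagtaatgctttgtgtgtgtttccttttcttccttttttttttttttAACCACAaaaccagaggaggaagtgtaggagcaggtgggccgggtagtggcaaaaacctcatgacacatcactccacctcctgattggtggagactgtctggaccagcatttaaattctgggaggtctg
Gpa33: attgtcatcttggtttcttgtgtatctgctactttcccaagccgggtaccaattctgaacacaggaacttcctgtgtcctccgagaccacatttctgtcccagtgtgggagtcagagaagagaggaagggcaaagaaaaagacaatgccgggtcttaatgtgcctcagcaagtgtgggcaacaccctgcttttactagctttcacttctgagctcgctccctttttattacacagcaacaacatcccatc
Lgals4: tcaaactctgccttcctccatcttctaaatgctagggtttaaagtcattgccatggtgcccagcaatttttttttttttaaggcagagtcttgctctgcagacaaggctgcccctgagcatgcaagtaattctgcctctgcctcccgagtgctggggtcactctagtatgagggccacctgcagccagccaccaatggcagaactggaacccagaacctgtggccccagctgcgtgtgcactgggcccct
Egfl7: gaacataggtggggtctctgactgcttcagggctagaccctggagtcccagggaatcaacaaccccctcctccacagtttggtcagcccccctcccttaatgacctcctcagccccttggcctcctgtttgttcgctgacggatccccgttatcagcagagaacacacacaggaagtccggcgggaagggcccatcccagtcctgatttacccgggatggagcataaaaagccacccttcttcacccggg
Vil1: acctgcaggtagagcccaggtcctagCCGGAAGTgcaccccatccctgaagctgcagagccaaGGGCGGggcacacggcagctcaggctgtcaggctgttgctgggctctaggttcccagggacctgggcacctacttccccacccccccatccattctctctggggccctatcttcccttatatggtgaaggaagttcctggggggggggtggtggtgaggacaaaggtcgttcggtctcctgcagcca
The Runx2 window, at chr17:44814628-44814877 on the minus strand, lay at a day 28 region of fold 9.08 that was also in the day 1 and day 7 lists. Runx2 encodes a RUNX factor, and the window held 1 RUNX match. The Batf window, at chr12:85686470-85686719 on the plus strand, and the Spp1 window, at chr5:104434861-104435110 on the plus strand, also held 1 RUNX match each, and the Batf window 1 GATA and 1 SP/KLF match besides. Batf encodes an AP-1 family factor and Spp1 the secreted phosphoprotein osteopontin, and their regions had folds of 6.53 and 4.83. No motif of the set was found in the windows of Gpa33 at chr1:166129971-166130220, Lgals4 at chr7:28833544-28833793 or Egfl7 at chr2:26583615-26583864. The Vil1 window at chr1:74409134-74409383 held 1 SP/KLF and 1 ETS match. These 4 lie on the plus strand, and none of their regions was in the day 1 or day 7 list. The windows of the list members Neurod1, Ryr2, Hoxb4, Maml2, Ckm, Lifr, Prom1 and Ins1, with a day 28 region only and lower folds, held no RUNX match. A match is a description of letters and not a bound site.

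Over all 21044 promoter windows, 12956 held a region in both lists, 280 in the day 28 list only and 438 in the untreated list only. The RUNX letters were in 4.64% of the 280 windows, in 5.25% of the 438, in 2.77% of those in both lists and in 3.84% of all windows. AP-1 letters were in 7.14% of the day 28-only windows, 9.59% of the untreated-only windows and 6.17% of all windows. The windows found in 1 list only had a median GC content of 54.4% in either direction, against 60.8% where both lists held a region and 46% where neither did. GATA letters were in 8.84% and ETS letters in 3.83% of all windows. SP/KLF letters followed the same order as GC content, at 34.3% and 29.9% in the day 28-only and untreated-only windows, 61.2% in the shared windows and 12.2% in windows with no region.

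The libraries differed in ways that touch every count. A pileup expected from background alone, which rises with depth, was worked out from the spacing of the fold values. It was 5.07 in the untreated library and 2.52 at day 28. The day 1 library, with 5.35, was close to the untreated one. The day 7 library, with 2.72, was close to the day 28 one. Counts followed over the 4 lists thus pass from libraries of higher to libraries of lower background pileup. The part of this split in the time courses was not tested. The lowest fold enrichment that entered a list was 2.47 untreated and 2.84 at day 28, and median widths were 306 and 337 bp. The untreated list held 1710 regions on the X chromosome, 1.22% of its regions, against 1.76%, 1.59% and 1.59% in the lists of days 1, 7 and 28. Regions at the 4 pan-epithelial genes Epcam, Cdh1, Krt8 and Krt18 summed to 85 untreated, 34 at day 1, 72 at day 7 and 77 at day 28. Of these, Cdh1, the epithelial cadherin, had 41 regions untreated and 38 at day 28, and Epcam had 19 and 16. Such counts do not measure the purity of the cells.

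Regions linked to genes of other cell types were counted in the 4 lists. All 22 endothelial genes had a region in every list, and their regions summed to 248 untreated, 224 at day 1, 225 at day 7 and 161 at day 28. Fibroblast and stellate genes summed to 245, 497, 371 and 285 regions, with Lum at 0 in the untreated list only. Regions at the 26 leukocyte genes summed to 45, 59, 48 and 38, and 18 of the 26 had a region in the untreated or day 28 list. Those at 0 in every list included the T cell genes Cd3d and Cd8a, the B cell gene Ms4a1, the macrophage gene Adgre1 and the neutrophil gene Ly6g. The globin genes Hba-a1, Hba-a2, Hbb-bs and Hbb-bt were at 0 in every list, and erythroid regions summed to 41, 38, 35 and 34. In bulk cells, fewer cells of a type and less accessibility per cell cannot be told apart, and the part of these other cell types in the results was not tested.

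Gained and lost regions were mostly narrow and weak. The authors' fold enrichment ranks regions within a list, and it had a median of 4.26 in gained regions, with quartiles of 3.69 and 4.83, against 8.52 in day 28 regions that the untreated list shared. Lost regions had a median fold of 3.62, with quartiles of 3.30 and 4.12, against 6.26 in the shared untreated regions. Median widths were 183 bp for gained and 177 bp for lost regions, and 430 and 398 bp for the shared ones. Among day 28 regions with a fold below 4, 58.1% were gained, and the share was 37.7% from 4 to 6, 10.7% from 6 to 9 and 1.07% from 9 to 15. Only 2 of 30046 day 28 regions with a fold of 15 or more were gained, and 10 of the 21541 such untreated regions were lost. In the untreated list the share lost went from 55.6% below a fold of 4 to 24.5%, 5.42% and 0.765% in the next classes. The difference between the lists therefore lay among their weaker regions, and the untreated and day 28 libraries also differed in background pileup. The part of depth in the counts was not tested.

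**Figure D1:**
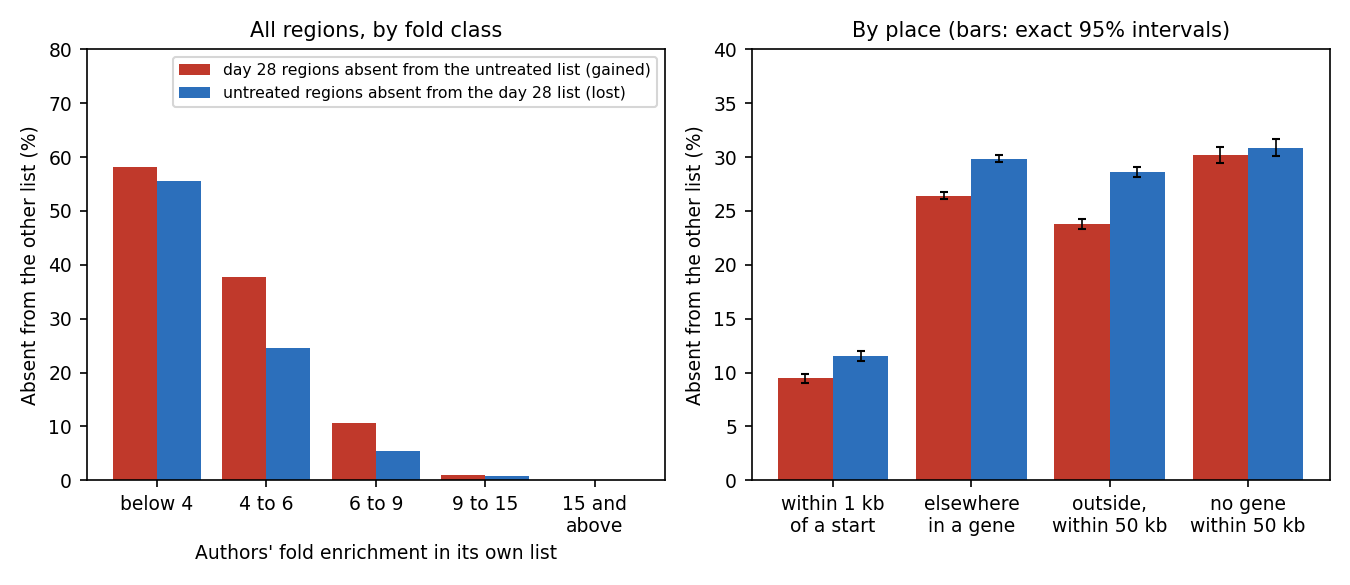
Share of regions absent from the other list, in percent, by the authors' fold enrichment (left) and by place relative to protein-coding genes (right), for day 28 regions (red, gained) and untreated regions (blue, lost), with exact 95% intervals on the right. The share decreases from 58.1% and 55.6% in the weakest class to near 0 in the strongest, and is 9.46% and 11.6% within 1 kb of a start. Because the background pileup differed, the same fold class is not a like threshold in the untreated and day 28 lists.

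Near transcription starts regions were shared more often. Within 1 kb of a start, 1745 of 18447 day 28 regions were gained, or 9.46% with an exact 95% interval of 9.04 to 9.89, and 2258 of 19538 untreated regions were lost, or 11.6% (11.1 to 12.01). Here and below such intervals are Clopper-Pearson intervals and cover counting error only. Elsewhere inside genes the shares were 26.4% gained and 29.8% lost, and with no gene within 50 kb they were 30.2% and 30.9%. The median fold was 27.8 at starts and 5.68 elsewhere inside genes in the day 28 list, so place and fold moved together. Many gained regions lay close to an untreated region: 4412, or 14.3%, were within 100 bp of one, and the median gap was 950 bp. For lost regions 3823, or 10.1%, were within 100 bp of a day 28 region and the median gap was 1544 bp. At the edge of the rule, 521 gained and 456 lost regions lay within 10 bp of a region of the other list, while 359 day 28 and 360 untreated regions were shared through an overlap of at most 10 bp.

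The day 1 and day 7 lists, which the rule did not use, place these regions in time. Of the gained regions, 53.5% had a region at day 1 and 53.2% at day 7, and 11252, or 36.4%, had one in neither. Of the lost regions, 32.2% had a region at day 1 and 27.0% at day 7, and 23435, or 61.7%, had one in neither. Day 28 regions shared with the untreated list were found at day 1 in 73.6% and at day 7 in 83.0%. Below a fold of 4 the lost regions were in the day 7 list in 24.8% and the shared untreated regions in 67.1%. For day 28 regions of that class the shares were 45.4% for gained and 57.2% for shared regions. A gained region is by its definition absent from the untreated list, and all 3 later lists are set against that same library, so these shares are a description only.

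By gene, 9231 of 21627, or 42.7%, held a gained region and 10505, or 48.6%, a lost region. Both occurred at 6577 genes, gained regions alone at 2654 and lost regions alone at 3928. A further 3738 genes had regions and neither gain nor loss, and 4730 had no region in either list. Genes where gained exceeded lost regions by at least 3, called net-gain genes here, numbered 1253 or 5.79% of all genes. Net-loss genes, defined in the same way, numbered 2243 or 10.4%. Of the 16897 genes with a region, these are 7.42% and 13.3%. Both classes held long genes with many regions: the median gene length was 67.7 kb for net-gain genes, 38.9 kb for net-loss genes and 19.04 kb for the other genes with a region. The counts at a gene also depend on merging and splitting of regions, so untreated plus gained minus lost does not always equal the day 28 count.

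**Figure D2:**
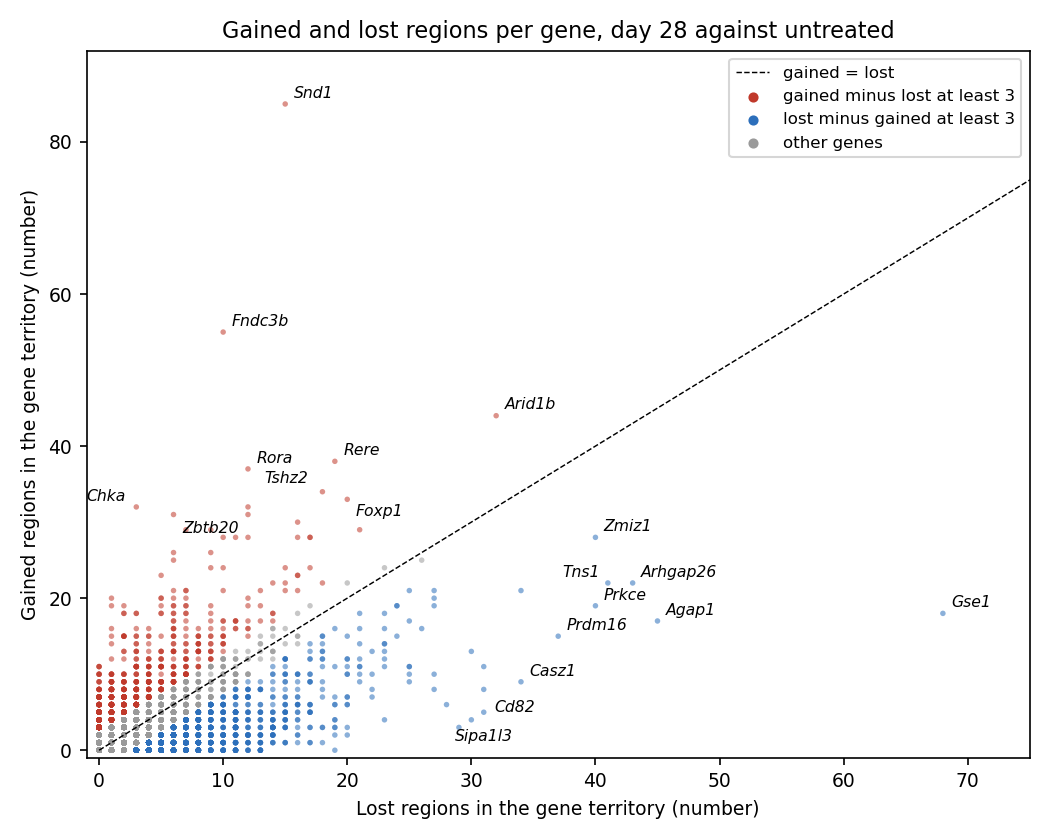
Gained regions (vertical axis, number) against lost regions (horizontal axis, number) for each protein-coding gene; red points are genes with gained minus lost of at least 3, blue points the reverse, grey points the others, and the dashed line marks equal numbers. Snd1 with 85 gained and 15 lost and Gse1 with 18 gained and 68 lost stand at the 2 ends.

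Snd1 held the most gained regions of any gene. It encodes a Tudor and nuclease domain protein of transcription and RNA processing, and lies at chr6:28480337-28935162. Its territory held 87 regions untreated, 76 at day 1, 81 at day 7 and 158 at day 28, with 85 gained and 15 lost. The totals of the first 3 lists were close together and the day 28 total stood far above them. The regions behind these totals differed: against the untreated list, 36 were gained and 36 lost at day 1. At day 7 the numbers were 33 and 35. The gained regions were spread along the gene and none lay within 1 kb of its start. With a −log10 q of at least 5 required in both lists, gained minus lost was 38 in place of 70.

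Several genes gained at day 28 had already held many regions during the injury. Fndc3b, which encodes a fibronectin type III domain protein, held 81 regions untreated, 153 at day 1, 131 at day 7 and 123 at day 28, with 55 gained and 10 lost. Rora, which encodes a nuclear receptor of the circadian clock, held 64, 125, 107 and 86 in the same order, with 37 gained and 12 lost. Zbtb20, a zinc-finger repressor gene, held 54, 96, 92 and 78, with 31 gained and 6 lost. Dlc1, which encodes a GTPase-activating protein, held 40, 107, 65 and 62, with 29 gained and 9 lost. In these 4 genes the day 1 list was the highest, the untreated list the lowest, and day 28 lay between them. Over the alternative settings gained minus lost lay between 21 and 46 at Fndc3b, 7 and 25 at Rora, 12 and 27 at Zbtb20 and 14 and 21 at Dlc1.

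Other genes had their highest count at day 28 itself. Chka, at chr19:3851585-3894369, encodes choline kinase alpha, which starts phosphatidylcholine synthesis from choline. It held 24 regions untreated, 7 at day 1, 44 at day 7 and 49 at day 28, with 32 gained and 3 lost, and its 52.9 gained regions per 100 kb of territory were the densest among genes with at least 5 gained. Adk, the adenosine kinase gene, held 48, 24, 29 and 69, with 29 gained and 7 lost. Sgms2, the gene of a sphingomyelin synthase, held 39, 23, 48 and 54, with 26 gained and 6 lost. These 3 genes had their lowest count at day 1. Over the alternative settings their gained minus lost lay between 14 and 29, 11 and 23, and 10 and 20. Arid1b, which encodes a subunit of the SWI/SNF chromatin remodeller, was among the leading genes in both directions, with 44 gained and 32 lost. Its difference of 12 became −6 with a −log10 q of at least 5 in both lists, so no direction is given for it. Rere, Tshz2, Foxp1, Zfand3, Aff1 and Rad51b completed the 12 genes with the most gained regions, with 30 to 38 gained and 12 to 20 lost. Over the alternative settings gained minus lost lay between 0 and 15 at Foxp1, 4 and 17 at Tshz2 and 6 and 20 at Rere, each lowest with a −log10 q of at least 5, and no direction is given for Foxp1. It lay between 13 and 23 at Zfand3, 10 and 21 at Aff1 and 8 and 18 at Rad51b.

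Gain per length picked out compact genes. After Chka the densest were H3f3b, a gene of the replacement histone H3.3, with 4, 5, 4 and 8 regions in the lists from untreated to day 28, and Hoxb3, with 18, 33, 39 and 34. Clu, which encodes the secreted chaperone clusterin and is induced in injured pancreas, held 16, 6, 22 and 17 regions, with 9 gained and 1 lost. Rtn2, Cyp2d22, Sbno2 and Osgin1 had 8, 8, 19 and 8 gained regions. Among genes with no untreated region, those with the most day 28 regions had small counts: Bend6, Gm11780 and H2al1j had 4 day 28 regions and Ccl19, Dcx, Gstz1, Hemgn and Lum, the next by the alphabet, had 3. Of these 8 genes only Gstz1, which encodes a glutathione transferase of tyrosine breakdown, was also at 0 at days 1 and 7. H2al1j belongs to a family of near-identical copies, and its count is uncertain for that reason.

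Gse1 held the most lost regions. It encodes a coiled-coil protein of histone deacetylase co-repressor complexes and lies at chr8:120228501-120581383. It had 197 regions untreated, 110 at day 1, 116 at day 7 and 147 at day 28, with 18 gained and 68 lost. The untreated list stood above the other 3, and day 28 was the nearest to it. Over the alternative thresholds, overlaps and link distances its gained minus lost lay between −51 and −26.

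Agap1, an Arf GTPase-activating protein gene, held 82 regions untreated, 80 at day 1, 69 at day 7 and 55 at day 28, with 17 gained and 45 lost. Cd82, a tetraspanin gene, held 55, 39, 38 and 31, with 5 gained and 31 lost. Mcf2l, a guanine nucleotide exchange factor gene, held 55, 29, 37 and 30, with 8 gained and 31 lost. Agap1 was close to its untreated count at day 1, while Cd82 and Mcf2l were already well below theirs. The regions behind the Agap1 count differed, with 33 gained and 35 lost at day 1 against the untreated list. Over the alternative settings gained minus lost lay between −28 and −19 at Agap1, −26 and −15 at Cd82 and −23 and −12 at Mcf2l.

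Itpk1, which encodes an inositol phosphate kinase, held 63 regions untreated, 36 at day 1, 37 at day 7 and 37 at day 28, with 3 gained and 29 lost. Sipa1l3 held 88, 43, 52 and 59, with 4 gained and 30 lost. Casz1, a zinc-finger factor gene, held 91, 34, 65 and 68, with 9 gained and 34 lost. In these 3 genes the untreated list was the highest of the 4. Over the alternative settings gained minus lost lay between −27 and −18 at Itpk1, −26 and −15 at Sipa1l3 and −25 and −17 at Casz1. Arhgap26, Tns1, Prkce, Zmiz1, Prdm16 and Nav2 had 34 to 43 lost and 15 to 28 gained regions, and Celf4 had 28 lost and 6 gained. Gained minus lost stayed below 0 at each of these 7 genes under the alternative settings, nearest at Zmiz1 with −16 to −7, Arhgap26 with −28 to −9 and Prdm16 with −22 to −9.

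Among compact genes the densest losses were at Lpcat4, which encodes a lysophospholipid acyltransferase, with 8, 4, 5 and 2 regions, Fam229a with 10, 3, 5 and 4, and Fam83e with 8, 2, 2 and 3. Slc39a4, the gene of the intestinal zinc importer, held 9, 0, 4 and 5. Kremen2, Tbc1d10c, Acp4 and A930017K11Rik followed with 5 to 7 lost regions each. The genes that had untreated regions and no day 28 region were led by Gm32719, with 7 untreated regions and 0 in each later list, followed by Clrn3, Cntnap5a, Fxyd4, Iqsec3, Prss30, Wscd1 and Zfp978 with 6. Clrn3 was at 11 at day 1 and 5 at day 7 before it reached 0. Gm32719 and Zfp978 are members of repeated gene families, and their counts are uncertain.

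**Figure D3:**
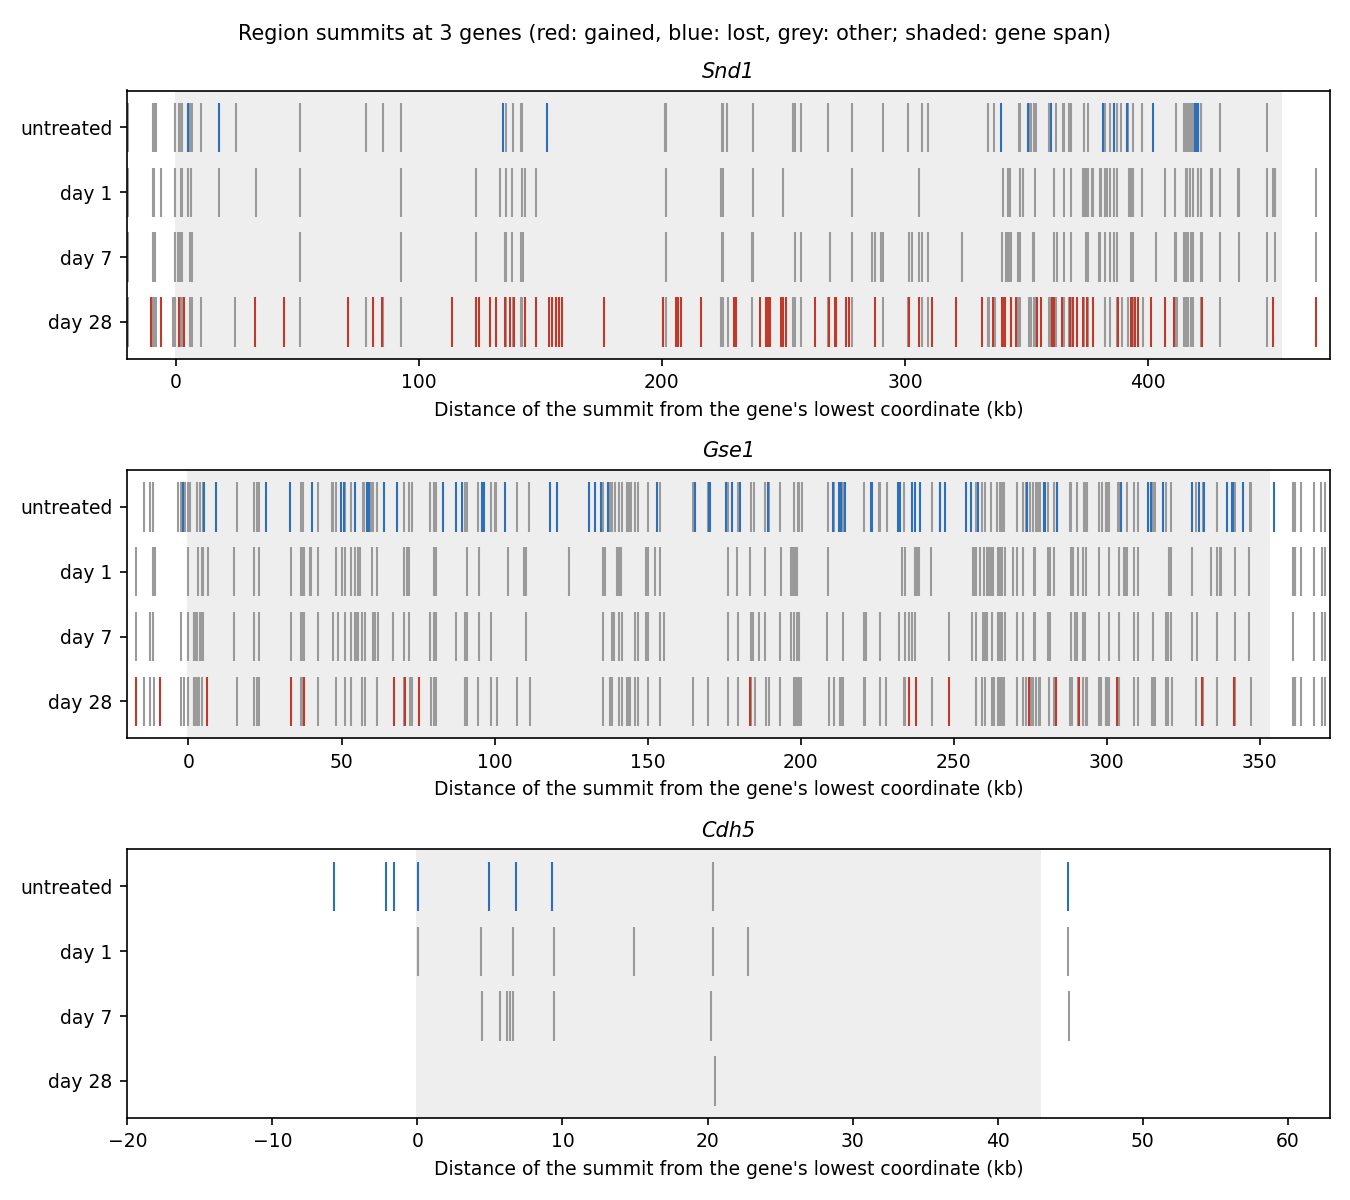
Region summits in the 4 lists at Snd1, Gse1 and Cdh5, by distance in kb from the lowest coordinate of the gene span (shaded) and up to 20 kb beyond it; red marks gained, blue lost and grey other regions. Gained summits are spread along Snd1, lost summits along Gse1, and at Cdh5 1 summit is left at day 28.

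The lists of pathway and cell type genes were read against 23.7% gained and 27.1% lost over all regions, and against 5.79% net-gain and 10.4% net-loss genes. The lists count linked regions only, and over all linked regions the shares were 23.0% gained and 26.7% lost. Digestive enzyme and zymogen granule genes had the lowest share lost of all the lists: 33 of 339 untreated regions at 31 genes, or 9.73% (6.80 to 13.4). They had gained 79 of 355 day 28 regions, or 22.3%. Their regions had summed to 67 at day 1 and 189 at day 7. Of the 31 genes, 7 were net-gain and 1 net-loss genes, and the median of gained minus lost was 1, against 0 over all genes. The median untreated fold of their regions was 5.602, against 4.94 over all linked regions. Among their untreated regions with a fold below 4, 24 of 92 were lost, or 26.1%, against 55.5% over all linked regions. Ubiquitous housekeeping genes had a similar share in that class, with 6 of 21 lost, or 28.6%.

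Pnlip, the pancreatic lipase gene, held 30 regions untreated, 7 at day 1, 13 at day 7 and 42 at day 28, with 15 gained and 2 lost. Cpb1, a carboxypeptidase gene, held 10, 0, 3 and 17, with 7 gained and none lost. At both genes day 28 was the highest list. Amy2b, a pancreatic amylase gene, was the net-loss gene, with 15, 0, 1 and 11 regions and 5 lost. Amylase and trypsin genes have near-identical copies, so reads may have been split or dropped between them.

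At the 12 genes of acinar transcription factors, 74 of 401 untreated regions were lost, or 18.5%, and 113 of 423 day 28 regions gained, or 26.7%, with 5 net-gain and 1 net-loss genes. Gata4 held 44 regions untreated, 13 at day 1, 28 at day 7 and 55 at day 28, with 20 gained and 6 lost. Mecom held 64, 40, 35 and 67, with 24 gained and 17 lost. Ptf1a, the gene of the factor that drives enzyme transcription, held 17, 3, 9 and 18, with 2 gained and 1 lost. Nr5a2, an orphan nuclear receptor gene of acinar identity, held 47, 16, 28 and 53, with 13 gained and 10 lost. Ptf1a was within 1 region of its untreated count, and Gata4 and Nr5a2 were above theirs. Creb3l1 was the net-loss gene, with 2 gained and 7 lost.

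Genes for translocation, folding and stress of the endoplasmic reticulum had gained 139 of 436 day 28 regions, or 31.9% (27.5 to 36.5), and lost 60 of 373, or 16.1%. The gained share was 8.13 percentage points above that of all regions, and 4.27 points above it when a gap of at least 500 bp was required. Of the 42 genes, 10 were net-gain genes and 0 net-loss genes. Eif2ak3 encodes PERK, the kinase that slows translation under unfolded protein stress. It held 35 regions untreated, 15 at day 1, 20 at day 7 and 51 at day 28, with 20 gained and 1 lost. Atf6, which encodes the membrane-bound stress sensor and transcription factor, held 13, 24, 22 and 31, with 19 gained and 1 lost. Sel1l, an adaptor gene of endoplasmic reticulum-associated degradation, held 47, 14, 22 and 51, with 13 gained and 8 lost. Eif2ak3 and Sel1l were lower at days 1 and 7 than untreated, while Atf6 was higher in each later list.

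At the secretagogue signalling and exocytosis genes 140 of 449 untreated regions were lost, or 31.2%. The interval of 26.9 to 35.7 includes the 27.1% over all regions and begins just above the 26.7% over linked regions. Of the 28 genes, 10 were net-loss and 4 net-gain genes. Itpr1 and Itpr3 encode inositol trisphosphate receptors, the calcium channels of the endoplasmic reticulum. Itpr1 held 65 regions untreated, 77 at day 1, 50 at day 7 and 57 at day 28, with 11 gained and 19 lost. Itpr3 held 27, 13, 22 and 22, with 5 gained and 13 lost. Atp2a2, the gene of the calcium pump that refills the store, held 13, 9, 16 and 16, with 7 gained and 3 lost. The gained share of the list was 24.6%.

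At the immediate-early and AP-1 genes 84 of 295 day 28 regions were gained, or 28.5% (23.4 to 34.0), and 57 of 305 untreated regions lost, or 18.7%, with 7 net-gain and 2 net-loss genes of 23. Fosl2, an AP-1 subunit gene, held 23 regions untreated, 33 at day 1, 42 at day 7 and 26 at day 28, with 13 gained and 8 lost. Klf6 held 17, 23, 28 and 20, with 9 gained and 3 lost. Klf10 held 26, 19, 20 and 16, with 3 gained and 8 lost. Fos, the AP-1 subunit gene first induced by stimulation, held 33, 36, 31 and 35, with 9 gained and 5 lost.

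RUNX and TEAD-YAP genes had shares near the background, 22.8% gained and 24.4% lost, with members on both sides. Runx1 held 33 regions untreated, 61 at day 1, 62 at day 7 and 43 at day 28, with 20 gained and 7 lost. Ccn1, a YAP target gene, held 11, 20, 20 and 23, with 9 gained and none lost. Runx3 held 20, 23, 23 and 12, with 1 gained and 10 lost. Tead4 held 17, 14, 13 and 11, with 0 gained and 8 lost. Tead1, with 16 gained and 19 lost, had the most lost regions of the list.

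The EGFR-MAPK genes were also near the background, with 24.9% gained and 25.7% lost, and held 10 net-loss and 4 net-gain genes of 35. Egfr, the receptor gene, held 42 regions untreated, 57 at day 1, 51 at day 7 and 55 at day 28, with 18 gained and 3 lost. Spred2, a gene of an inhibitor of the cascade, held 44, 45, 31 and 37, with 8 gained and 14 lost. The inflammatory, NF-kB and STAT3 genes had 23.4% gained and 24.3% lost. Among the regulators, Nfkbiz held 15, 26, 35 and 23 regions, with 10 gained and none lost, and among the receptors Il4ra held 28, 23, 31 and 21, with 3 gained and 11 lost. Irf1 and Il6ra also had 11 lost regions.

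In ductal and metaplasia genes 26.1% of regions were gained and 27.4% lost. Cd44, a hyaluronan receptor gene, held 17 regions untreated, 89 at day 1, 40 at day 7 and 20 at day 28, with 10 gained and 6 lost. It was nearly back at its untreated count, although 10 of its 20 day 28 regions were not in the untreated list. Sox9 and Hes1 had lost 8 regions each and gained 4 each. Krt7 held 8, 7, 13 and 13, with 7 gained and 2 lost. Tuft cell genes, a chemosensory cell type that appears during metaplasia, had 26.9% gained and 30.4% lost. Their marker Dclk1 held 19, 63, 42 and 26, with 12 gained and 4 lost. Endocrine genes had 27.0% gained and 27.7% lost, and Isl1, a gene of an islet factor, held 8, 12, 11 and 17, with 10 gained and 1 lost.

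**Figure D4:**
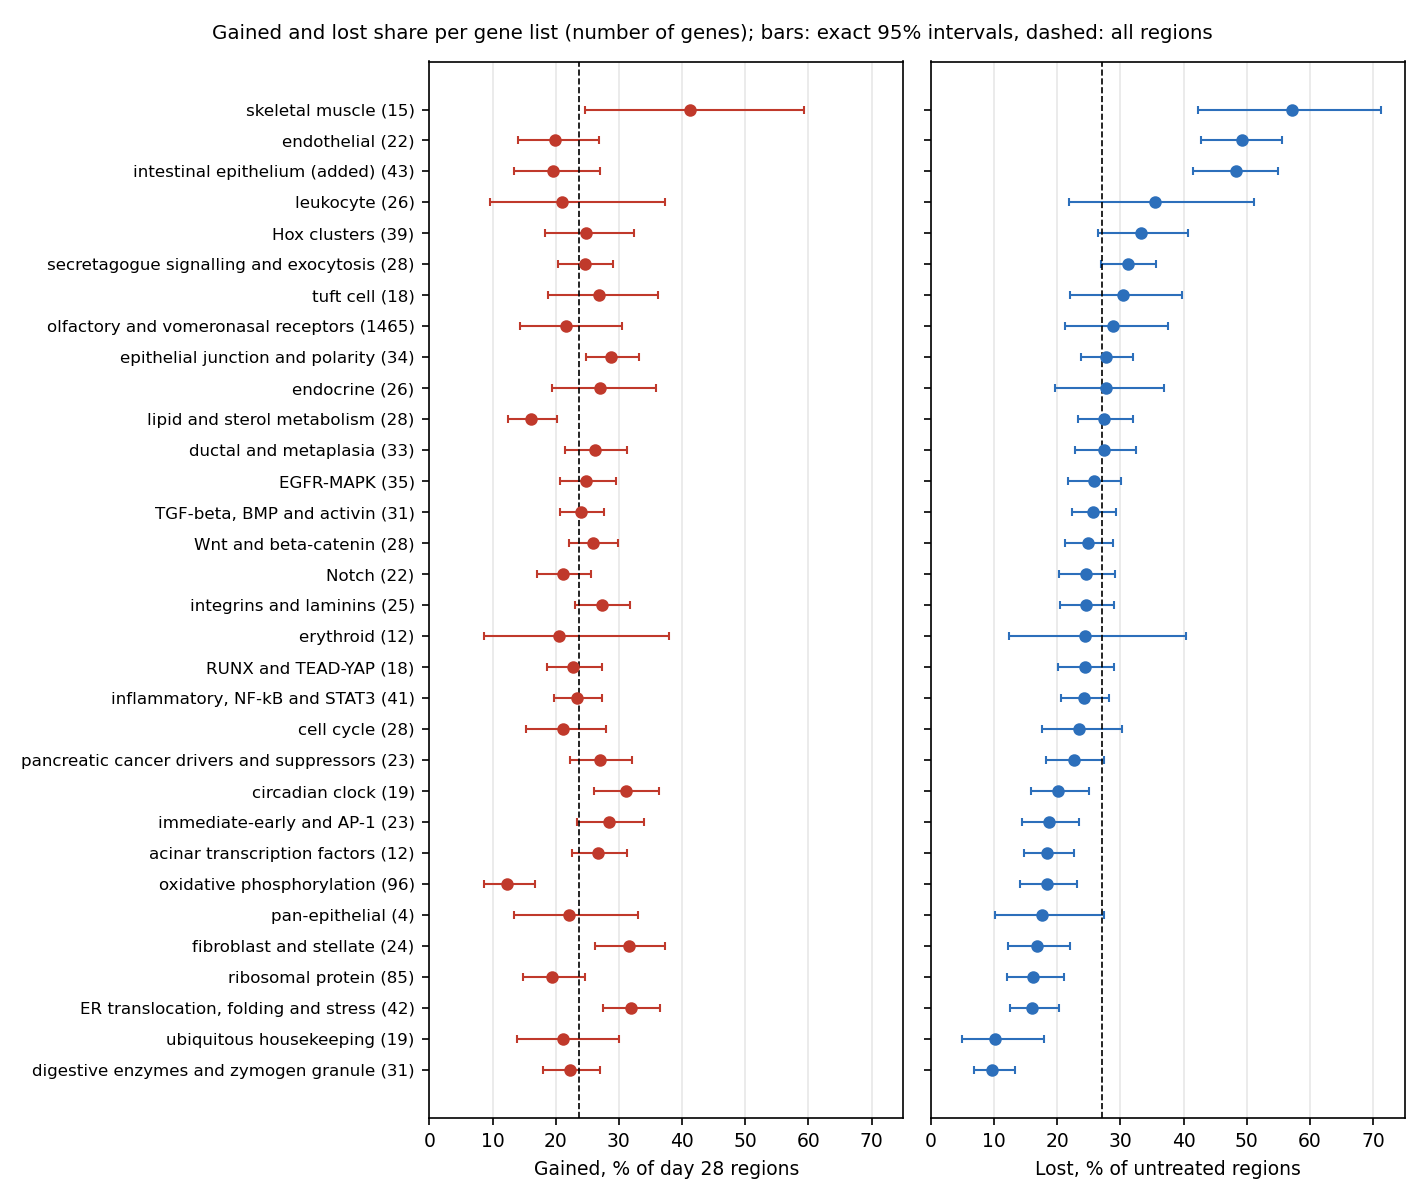
Share of day 28 regions gained (left, percent) and of untreated regions lost (right, percent) for each gene list, with the number of genes in parentheses, exact 95% intervals as bars and the share over all regions as a dashed line at 23.7% and 27.1%. Digestive enzyme genes are lowest on the right at 9.73% and skeletal muscle genes highest at 57.1%, with endothelial and intestinal genes at 49.2% and 48.2%. The intestinal list was added after some of its lost regions had been seen.

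Endothelial genes had lost 122 of 248 untreated regions, or 49.2% (42.8 to 55.6), and gained 32 of 161 day 28 regions, or 19.9%. Of the 22 genes, 14 were net-loss genes and 1 was a net-gain gene, and the median of gained minus lost was −3.5. A region at a start was lost at 11 of the 22 genes, against 8.94% of all genes. Among untreated regions with a fold below 4 the share lost was 78.4%, against 55.5% over all linked regions. Set against the same untreated library, 44.4% of these regions were absent at day 1 and 40.7% at day 7, beside 37.1% and 31.8% of all linked regions. Cdh5, the gene of the cadherin of endothelial junctions, held 11 regions untreated, 9 at day 1, 10 at day 7 and 1 at day 28, with 10 lost. Fli1, an ETS factor gene, held 13, 14, 9 and 3, with 9 lost and none gained. Egfl7 held 31, 19, 21 and 19, with 16 lost and 5 gained. Erg, also an ETS factor gene, held 28, 21, 31 and 19, with 16 lost and 7 gained. Kdr, a receptor gene for vascular endothelial growth factor, was the net-gain gene, with 5, 15, 12 and 8 regions. Day 28 was the lowest or joint lowest list at Cdh5, Fli1, Egfl7 and Erg.

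A similar share was found for a list of 43 intestinal epithelium genes, which was added after 3 of its members had been seen among the strongest lost regions at gene starts. They had lost 109 of 226 untreated regions, or 48.2% (41.6 to 54.95), and gained 28 of 143, or 19.6%. Without those 3 genes, Gpa33, Lgals4 and Phgr1, the share lost was 46.9%. The list held 14 net-loss and 0 net-gain genes. A region at a start was lost at 14 of the 43 and gained at 3, against 8.94% and 7.32% of all genes. The regions summed to 226 untreated and to 163, 163 and 143 at days 1, 7 and 28. Of the 226 untreated regions, 58.4% were absent at day 1 and 52.2% at day 7, beside 37.1% and 31.8% of all linked regions. The share absent was thus lowest at day 28. Guca2a, the gene of the gut peptide guanylin, held 7 regions untreated, 2 at day 1, 1 at day 7 and 1 at day 28. Muc2, the gene of the goblet cell mucin, held 9, 1, 2 and 3. Vil1, the gene of villin in the brush border, held 8, 2, 3 and 3. Cdx2, the gene of the intestinal homeobox factor, held 9, 4, 5 and 6. In each of these 4 genes the untreated list was the highest. Sis and Apoc3, genes of mature enterocytes, were at 0 in every list. Whether the untreated preparation held intestinal cells was not tested.

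The strongest lost regions at starts were at Gpa33, with a fold of 12.7 in the untreated list, Lgals4 at 11.9, Pla2g10 at 10.5 and Nos3 at 10.2. Gpa33 and Lgals4 encode a surface antigen and a galectin of gut epithelium, and Nos3 the endothelial nitric oxide synthase. They were followed by Hsf5, Phgr1, Pck1, Plekhg4, Acer1 and Net1, and of these 10 regions 1 was in the day 1 list and 3 in the day 7 list. The strongest gained regions at starts were at Tiam1, a Rac exchange factor gene, with a fold of 13.9 in the day 28 list, and at Glrb, Med14 and Xlr3a with 10.8 each. Pwwp3b, Pcdhgb5, 1810058I24Rik, Sult2b1, Cfap58 and Grik3 followed, and of these 10 regions 5 were in the day 1 list and 8 in the day 7 list. A region at a start was gained at 7.32% and lost at 8.94% of all genes. Med14, Xlr3a and Pwwp3b lie on the X chromosome, and Xlr3a has near-identical copies there.

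Fibroblast and stellate genes had gained 90 of 285 day 28 regions, or 31.6% (26.2 to 37.3), and lost 41 of 245, or 16.7%, with 11 net-gain and 1 net-loss genes of 24. Col1a2, a collagen gene, held 14 regions untreated, 35 at day 1, 21 at day 7 and 20 at day 28, with 7 gained and none lost. Col6a3 held 27, 62, 38 and 30, with 8 gained and 2 lost, and Twist2 held 15, 30, 28 and 20, with 6 gained and none lost. Pdgfrb, a pericyte and stellate receptor gene, was the net-loss gene, with 4 gained and 8 lost. At Col1a2, Col6a3 and Twist2 day 1 was the highest list and untreated the lowest. Leukocyte genes had lost 16 of 45 regions, or 35.6% (21.9 to 51.2), and gained 8 of 38, and erythroid genes had lost 10 of 41 and gained 7 of 34. Skeletal muscle genes had lost 28 of 49 regions, or 57.1% (42.2 to 71.2), and gained 14 of 34, or 41.2%. These small sums carry wide intervals.

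TGF-beta, BMP and activin genes had 24.0% gained and 25.7% lost, with 4 gained and 16 lost at Smad6, the gene of an inhibitory SMAD, and 8 gained and 1 lost at Bmpr1a, a BMP receptor gene. Notch genes had 21.1% and 24.5%, with 1 gained and 10 lost at the ligand gene Jag2 and 10 gained and 3 lost at the receptor gene Notch2. Wnt and beta-catenin genes had 25.8% and 24.9%. The Wnt co-receptor gene Lrp5 had 1 gained and 12 lost, and Axin2, a gene of a feedback inhibitor, 11 gained and 4 lost.

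Integrin and laminin genes had 27.3% gained and 24.5% lost, with 9 net-gain and 5 net-loss genes of 25. Itga6, the gene of a laminin-binding integrin chain, held 30 regions untreated, 17 at day 1, 25 at day 7 and 42 at day 28, with 15 gained and 1 lost. Lama5, a laminin chain gene of basement membranes, held 33, 22, 19 and 20, with 3 gained and 15 lost. Epithelial junction and polarity genes had gained 28.8% (24.7 to 33.2) and lost 27.8%, with 6 net-gain and 11 net-loss genes of 34. Pard3, a polarity gene, held 32, 80, 56 and 46, with 28 gained and 12 lost, and Grhl2, the gene of an epithelial transcription factor, held 31, 12, 17 and 25, with 5 gained and 11 lost.

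Circadian clock genes had gained 101 of 325 regions, or 31.1% (26.1 to 36.4), and lost 62 of 308, or 20.1%. The gained share was 7.33 percentage points above that of all regions. The difference was 2.58 points with a −log10 q of at least 5 in both lists. Rora, described above, and Nfil3, the gene of a repressor of clock output, held the most gained regions. Nfil3 had 19 regions untreated, 26 at day 1, 43 at day 7 and 33 at day 28, with 19 gained and 2 lost. Arntl, which encodes the core clock activator BMAL1, held 48, 37, 48 and 36, with 6 gained and 13 lost. Only 4 of the 19 genes were net-gain and 2 net-loss genes, and Rora and Nfil3 gave 37 and 19 of the 101 gained regions. The sources used here do not state the hour of harvest.

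Lipid and sterol metabolism genes had gained 59 of 367 day 28 regions, or 16.1% (12.5 to 20.2), the lowest gained share of these lists except that of oxidative phosphorylation genes, and lost 115 of 419, or 27.4%. Rxra, the gene of the shared partner of lipid-sensing nuclear receptors, held 76 regions untreated, 54 at day 1, 63 at day 7 and 62 at day 28, with 7 gained and 19 lost. Ppard held 37, 26, 20 and 26, with 2 gained and 14 lost. Elovl6, a fatty acid elongase gene, held 22, 28, 19 and 11, with 1 gained and 10 lost. Of the 28 genes 9 were net-loss and 2 net-gain genes.

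Cell cycle genes had 21.1% gained and 23.5% lost, and pancreatic cancer drivers and suppressors, among them Arid1b, 27.0% and 22.6%. Ubiquitous housekeeping genes had 21.1% gained and 10.2% lost, ribosomal protein genes 19.4% and 16.2%, and oxidative phosphorylation genes 12.3% and 18.3%. The median untreated fold was 7.17, 6.01 and 5.93 in these last 3 lists, above the 4.94 of all linked regions. Olfactory and vomeronasal receptor genes, which are silent in pancreas, served as a background: 83 of 1465 had a region, with 21.6% gained and 28.9% lost.

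The 39 Hox genes had gained 24.8% and lost 60 of 180 regions, or 33.3% (26.5 to 40.7), with 8 net-loss genes and 1 net-gain gene. The interval of the lost share includes the 27.1% over all regions. Hoxb3, of the anterior part of its cluster, was the net-gain gene, with 18 gained and 3 lost. Hoxb9 held 12 regions untreated, 9 at day 1, 7 at day 7 and 5 at day 28, with 7 lost. Hoxa10 held 8, 10, 5 and 2, with 6 lost, and Hoxd3 held 8, 14, 13 and 3, with 5 lost. Hoxa11, Hoxd11 and Hoxb13, from the posterior parts of the clusters, held 4 regions each untreated and 0 at day 28, and were named after their values were seen. A region at a start was lost at 14 of the 39 genes and gained at 8, against 8.94% and 7.32% of all genes.

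On the autosomes the gained share lay between 21.4% on chromosome 7 and 26.1% on chromosome 13, and the lost share between 24.0% on chromosome 3 and 29.3% on chromosome 4. The X chromosome stood apart in both directions: 604 of 2064 day 28 regions were gained, or 29.3% (27.3 to 31.3), and 236 of 1710 untreated regions were lost, or 13.8% (12.2 to 15.5). The untreated list also had the smallest number of X regions of the 4 lists, with 2901 at day 1 and 2315 at day 7. The sex of the mice is not in the labels, and its part in this difference was not tested. Counts at X-linked genes such as Med14, H2al1j and Dcx share this limit.

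**Figure D5:**
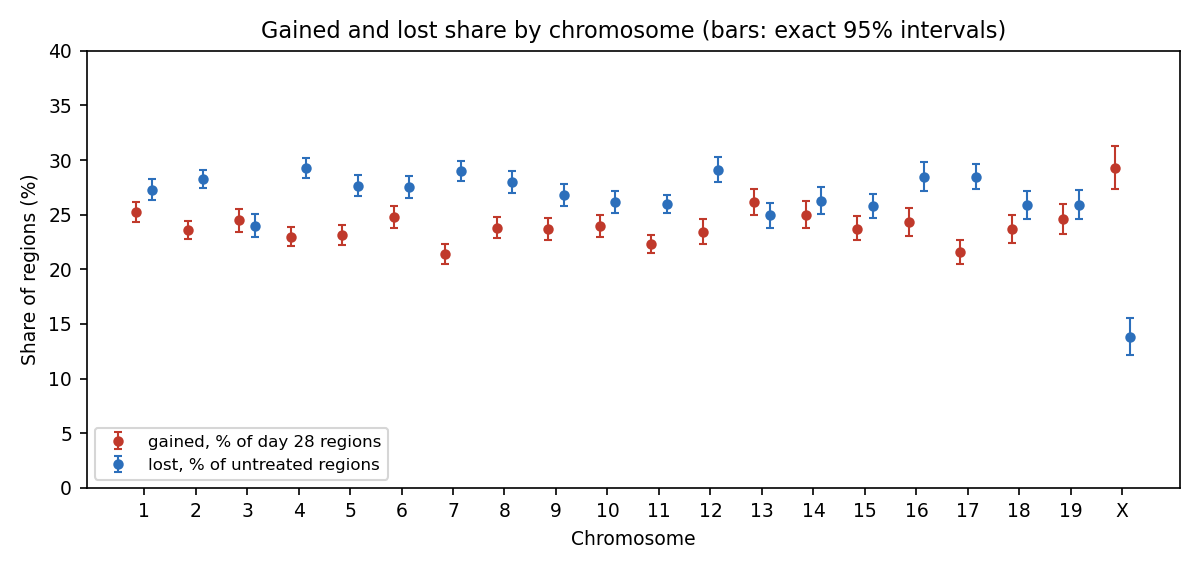
Share of day 28 regions gained (red, percent) and of untreated regions lost (blue, percent) by chromosome, with exact 95% intervals as bars. The X chromosome has the highest gained share, 29.3%, and the lowest lost share, 13.8%.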

How the data were processed

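Peak lists of untreated epithelium and of days 1, 7 and 28 after caerulein were used, 1 library each, grouped by the labels. The 3 samples that hold DCLK1-positive cells were not used here. Per the submitters' processing notes, the tools included MACS2 2.1.0.20150731 and Bowtie2 2.2.6, with cutadapt, SAMtools and deepTools, and the build was GRCm38 (mm10). Their options, and whether reads were shifted for the Tn5 cut, are not given in the sources used. The deposited narrowPeak columns hold the fold enrichment at the summit (a ratio of pileup to background), −log10 p and −log10 q values, a score and the summit offset. Read totals are not given. The background pileup was recovered from the spacing of the deposited fold values. With that same spacing, 100% of the pileups were whole within 0.05, which is not a separate check.

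Overlaps of 1 bp were computed with numpy 2.4.6 and pandas 2.3.3 and compared with bedtools 2.31.1, whose counts of 30910 gained and 37988 lost regions were equal, and the scripts were tested on simulated data. Gene spans and promoters came from RefSeq tables of GRCm38.p6, and 17273 genes had a start. For the others either annotated end was used. A summit inside overlapping genes went to the gene with the nearest end, and territories were measured in steps of 500 bp. Intervals are exact 95% binomial intervals from scipy 1.17.1. Nearness does not show that a region acts on a gene.

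Named genes are the 12 with most gained or lost regions, the 8 with the highest or lowest difference, the 8 with most gained or lost regions per 100 kb of territory among genes with at least 5, up to 8 with regions in 1 list only, the 10 strongest regions at starts, and up to 3 per direction from each list, with markers that define a cell type. A gene that this rule names is not reported here. Where a list had a single net-gain or net-loss gene, it was named after its values were seen. Members and lists were chosen with earlier results of these data known. The intestinal list was added after the strongest lost regions had been seen. Ctrc was not found in the annotation.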

Additional observations from a re-analysis of the deposited data

How the results depend on the processing

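No paired analysis was possible because each group is 1 library, and for the same reason none could be left out. Gained regions numbered 30910. They were 18623 when a gap of at least 500 bp to the other list was required, 20263 with a −log10 q of at least 5 in both lists, and 16485 with that threshold where present and no region where absent. Under the same 3 settings, net-gain genes numbered 788, 675 and 588 in place of 1253, and genes with a gained region at a start 390, 1041 and 815 in place of 1583. Lost regions numbered 24899 in place of 37988 with the threshold where present and no region where absent, and genes with a lost region at a start 808 in place of 1934 with the gap of 500 bp. Net-loss genes stayed within 1.5 times 2243 under all 6 alternatives. Among the 29 genes with the most gained or lost regions or the most extreme difference, and the lists, 260 values stayed within 1.5 times (gene differences) or 5 percentage points (list shares) and 51 moved further. Of those 29 genes Arid1b alone reversed, to −6 gained minus lost with the threshold in both lists, and the other named genes were not recomputed. For lists at least 5 percentage points from the background no difference changed sign, and the endothelial share lost stayed 20.3 to 22.7 points above that of all regions. The causes were not tested. The lowest pileup listed was 14 in the untreated and 9 in the day 28 library, and the part of depth was not tested. In the day 1 library this lowest pileup was 14, and in the day 7 library 10.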
